A study of Homo sapiens with 4 samples.

Results

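Adherens junctions join neighbouring cells through cadherins and nectins, and the 10 genes described here encode the catenins that anchor cadherins, the nectins, the nectin adaptor afadin and the nectin-related receptor PVR. The members were taken by name (CTNNA1, CTNNA2, CTNNB1, CTNND1, JUP, NECTIN1, NECTIN2, NECTIN3, AFDN and PVR), and all 10 were found among the 60721 genes of the count table. RNA came from Hs578T cells, an established human breast carcinoma line. Every group carried GFP as a co-transfected agent, and differed in the second RNA, which was non-targeting in the SCR group and directed at TLN1 in the siTLN1 group. That RNA was given at 1.6 µM, and cells were collected at 48 h. TLN1 encodes talin-1, which couples integrins to actin. Each group held 2 libraries described as biological replicas of this 1 line, and the libraries of each group are called a and b here. Whether 1 siRNA or a pool was used, and whether GFP-positive cells were sorted, is not given in the sources used here.

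In a cadherin junction, beta-catenin or plakoglobin binds the distal part of the cadherin tail, p120-catenin binds the part next to the membrane, and alpha-catenin connects the complex to actin and can recruit vinculin. Nectins are immunoglobulin-like receptors that bind one another across the cell gap and attach to actin through afadin. Beta-catenin is also the nuclear effector of Wnt signalling, so its protein is held at a low free level by a destruction complex. The measurements below are of RNA, and protein levels were not measured.

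The sequences that matter for reading an siRNA experiment are short transcript words, since an siRNA can also lower transcripts that pair with its seed. The 7-base word GACAACA was picked out in an earlier look at these same data because genes that hold it had lower fold changes, so its link to fold change is not independent support here. The siRNA sequence is not given in the sources used here, and whether this word is its seed match was not tested. Searched on the sense strand of 1 GENCODE 29 transcript per gene, the word lay in the 3′ UTR of 7.34% of 12864 tested genes and only in the coding sequence of a further 14.6%. The median log2 fold change was −0.099 in the first set, −0.024 in the second and 0.019 in genes with neither. Among the 10 members it was found in CTNNA1, CTNNA2, CTNND1 and PVR. The sites are shown 5′ to 3′ with the word in capitals, because they separate members with a copy from those without.
CTNNA1 3′ UTR, chr5:138934843-138934849, plus strand: aaaaacctGACAACAtagtgttt
CTNNA1 coding sequence, chr5:138812295-138812301, plus strand: agccaaaaGACAACAggaattga
CTNNA2 coding sequence, chr2:79869928-79869934, plus strand: agcaagaaGACAACAggagctga
CTNND1 coding sequence, chr11:57796480-57796486, plus strand: aagactgtGACAACAcggacagt
PVR 3′ UTR, chr19:44662191-44662197, plus strand: caacatgtGACAACAtgcaagaa
TLN1 coding sequence, chr9:35706037-35706043, minus strand: gaggacctGACAACAaccctcaa

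Coordinates are of the word on GRCh38. CTNNA1 was the member with a copy in each region and also the measured member with a negative fold change. PVR, with a 3′ UTR copy, and CTNND1, with a coding copy, had positive ones. Whether the word bears on any of these changes was not tested. No annotated protein-coding transcript of CTNNB1, JUP, NECTIN1, NECTIN2, NECTIN3 or AFDN in that release holds the word. Of 27 such transcripts of CTNNA1, 3 hold it in the 3′ UTR, and 3 of 5 of PVR do.

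Total counts ran from 31854322 to 46353297 per library. TLN1 itself was at 868.0 and 873.6 CPM (counts scaled to library size and composition) in SCR and at 51.9 and 44.8 CPM in siTLN1. The source is labelled as epithelial, but 7 of 11 epithelial markers stayed under 1 CPM in every library, EPCAM among them, and GRHL2 was at 0 throughout. E-cadherin (CDH1) averaged 0.463 CPM in SCR. The summed level of the epithelial list was 129 to 161 CPM in SCR and 139 to 153 CPM in siTLN1, mostly KRT18. All 9 mesenchymal markers were tested, with summed levels of 54450 to 56333 CPM in SCR and 52625 to 60491 CPM in siTLN1. Of these 9, CDH2 and SPARC, a matrix-associated glycoprotein, were called lower and 7 did not pass, with a median log2 fold change of −0.19. SPARC went from 5119 and 4917 CPM to 3705 and 3500 CPM (adjusted p 0.0161), and the part of the marker changes in the results below was not tested. Leukocyte markers summed to at most 0.912 CPM in any library, with CD3E and LYZ at 0, and endothelial markers to at most 6.17 CPM.

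Of the 10 members, 9 passed the filter on low counts and 1, NECTIN1, was called by edgeR's quasi-likelihood test with an adjusted p under 0.05. Across all 16137 tested genes 6.07% were called, and 2.30% were called as higher in siTLN1. NECTIN1 rose and none of the other 8 tested members passed the threshold in either direction. At an unadjusted p under 0.05 there were 4 members, NECTIN1, JUP, CTNNA1 and NECTIN2, where 19.8% of all tested genes met that limit. The libraries of the groups did not overlap for 8 of the 9, which was also true of 48.4% of all tested genes. The fold changes were positive for 8 members, with NECTIN3 at 0.0055 among them, and negative for CTNNA1. Over all tested genes 50.6% were positive. The median log2 value was 0.18 for the members against 0.0033 over all tested genes. No conclusion on the members as a set is drawn from these values.

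**Figure D1:**
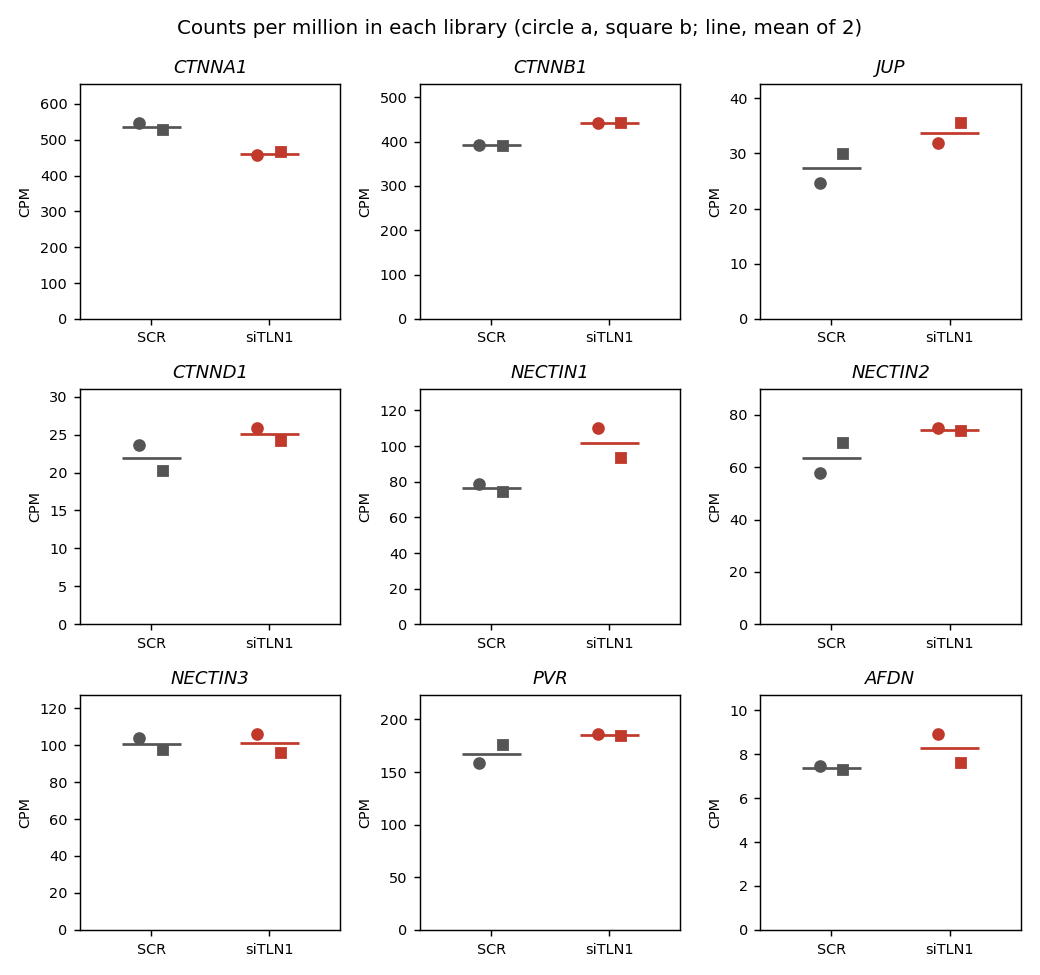
CPM (vertical axes, from 0) of the 9 measured members in the 2 SCR and 2 siTLN1 libraries, with circles for library a, squares for library b and a line at the mean of each group. CTNNA1 is lower in each siTLN1 library than in each SCR library, NECTIN3 overlaps, and the other 7 are higher in each siTLN1 library.

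CTNNA1 encodes alpha-E-catenin, the actin-linking catenin of most tissues (ENSG00000044115.21; chromosome 5, 138610967 to 138935034, plus strand). Its level was 546.9 and 525.6 CPM in the SCR libraries and 457.5 and 464.6 CPM in the siTLN1 libraries. The siTLN1 libraries were thus both below the SCR libraries, with means of 536.3 ± 15.1 CPM (SD, n = 2) and 461.1 ± 5.00 CPM (SD, n = 2). The fitted log2 change was −0.22 (standard error, SE, 0.094), and its unadjusted p of 0.0338 became an adjusted p of 0.202, so the difference did not pass the threshold. The 95% interval of the fold ran from 0.749 to 0.987. CTNNA1 shares 5.89% of its exon bases with genes on the opposite strand, LRRTM2 and CTNNA1-AS1, which had at most 21 counts in any library. Pairs confined to the shared bases were counted for neither gene, so those low counts do not show how many CTNNA1 pairs were lost.

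CTNNA2 encodes alpha-N-catenin, the form known from neurons (ENSG00000066032.18; chromosome 2, 79185231 to 80648861, plus strand). It had 0 counts in all 4 libraries. A count of 0 allows up to 3 counts, or 0.0942 CPM in the shallowest library and 0.0647 CPM in the deepest. CTNNA3, a further alpha-catenin, had 2 counts in 1 library and 0 in the other 3. Among alpha-catenin genes the reads therefore came from CTNNA1 at this depth, and no fold change was computed for CTNNA2.

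CTNNB1 encodes beta-catenin (ENSG00000168036.18; chromosome 3, 41194741 to 41260096, plus strand). Its level was 393.3 and 389.8 CPM in SCR and 442.4 and 442.1 CPM in siTLN1. The replicates lay close together and the groups did not overlap. CTNNB1 had a log2 fold change of 0.18 (SE 0.093, adjusted p 0.314), a fold of 1.13 and a 95% interval of 0.986 to 1.29. The fit borrows spread from other genes, so the small distance between these replicates does not by itself set the SE.

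JUP encodes plakoglobin, which takes the place of beta-catenin on cadherins and also sits in desmosomes (ENSG00000173801.17; chromosome 17, 41754604 to 41786931, minus strand). Its level was 24.7 and 29.9 CPM in SCR and 31.9 and 35.5 CPM in siTLN1. The higher SCR library and the lower siTLN1 library were nearer to each other than the replicates of either group. The fitted log2 change of 0.31 (SE 0.11) had an adjusted p of 0.133, with a 95% interval of the fold from 1.05 to 1.46. Without SCR library b the value was 0.45 with an adjusted p of 0.0198, and without SCR library a it was 0.18 with an adjusted p of 0.513.

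CTNND1 encodes p120-catenin, which keeps cadherins at the cell surface (ENSG00000198561.14; chromosome 11, 57753243 to 57819546, plus strand). Its level was 23.6 and 20.2 CPM in SCR and 25.8 and 24.2 CPM in siTLN1, groups that come close but do not overlap. On the log2 scale the difference was 0.19 (SE 0.11, adjusted p 0.363). These counts stand for a part of the gene. In the annotation used for counting, 57.9% of its exon bases also belong to ENSG00000288534 on the same strand, and 19.7% to ENSG00000254732 as well, so read pairs confined to those bases could not be assigned to 1 gene. None of the 2904 coding bases of the transcript examined lies in the unshared 42.1%. The CTNND1 counts thus rest on pairs that touch its noncoding exon parts or exons outside that coding sequence, and ENSG00000288534 itself received 4 to 10 counts per library. Adding the counts of the overlapping genes left the value at 0.19, since discarded pairs are in neither count.

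NECTIN1 encodes nectin-1 (ENSG00000110400.11; chromosome 11, 119623408 to 119729200, minus strand). It was at 78.9 and 74.4 CPM in SCR and at 109.9 and 93.2 CPM in siTLN1. Each siTLN1 library was above each SCR library, and siTLN1 library a was the highest. Mean levels were 76.6 ± 3.18 CPM (SD, n = 2) and 101.6 ± 11.8 CPM (SD, n = 2), a 1.32-fold rise with a 95% interval of 1.14 to 1.54. This is a log2 fold change of 0.41 (SE 0.10, adjusted p 0.0244), where the median size over all called genes was 0.55. The call was lost without siTLN1 library a (0.28, adjusted p 0.364) and without SCR library b (0.36, adjusted p 0.0702), and it remained without SCR library a or siTLN1 library b. An opposite-strand gene, ENSG00000254561, shares 1.89% of the NECTIN1 exon bases and had 0 to 4 counts per library. Pairs confined to the shared bases were counted for neither gene.

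NECTIN2 encodes nectin-2 (ENSG00000130202.10; chromosome 19, 44846175 to 44889223, plus strand), which like PVR is also a ligand of the lymphocyte receptors CD226 and TIGIT. It was at 57.7 and 69.2 CPM in SCR and at 74.9 and 73.7 CPM in siTLN1. The SCR libraries were farther apart than SCR library b was from either siTLN1 library. NECTIN2 had a log2 fold change of 0.23 (SE 0.10, adjusted p 0.228), and leaving out SCR library a gave 0.10 where leaving out SCR library b gave 0.36. The same chromosome holds PVR (ENSG00000073008.15; 44643798 to 44666162, plus strand), the poliovirus receptor, which binds NECTIN3. PVR was at 158.3 and 176.1 CPM in SCR and at 186.3 and 184.1 CPM in siTLN1, and its log2 fold change of 0.15 (SE 0.094) was not called (adjusted p 0.420). Of its exon bases 33.3% also belong to ENSG00000279095 on the same strand, which had 0 counts, so pairs confined to that stretch were not counted for PVR. Its coding bases are unshared.

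NECTIN3 encodes nectin-3 (ENSG00000177707.11; chromosome 3, 111070071 to 111275563, plus strand). It was at 104.0 and 97.2 CPM in SCR and at 106.1 and 95.9 CPM in siTLN1. The groups overlapped fully and the means of 100.6 and 101.0 CPM were closer than the replicates. Its log2 fold change was 0.0055 (SE 0.095, adjusted p 0.987). Its 95% interval of the fold was 0.873 to 1.15, from a spread partly borrowed from other genes, and changes within it were not excluded. Its sign turned without siTLN1 library a (−0.069) and without SCR library b (−0.043), and with the trend with gene length removed (−0.00018).

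AFDN encodes afadin, the adaptor that ties nectins to actin and binds the small GTPase Rap1 (ENSG00000130396.20; chromosome 6, 167826922 to 167972023, plus strand). It was at 7.46 and 7.29 CPM in SCR and at 8.93 and 7.60 CPM in siTLN1, from 237 to 357 counts per library. It was the lowest of the measured members, although none of its exon bases are shared with another gene. The change on the log2 scale was 0.16 (SE 0.14, adjusted p 0.591). The 95% interval of the fold was 0.910 to 1.37, wider than for the other 8, and the log2 value was 0.043 without siTLN1 library a.

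**Figure D2:**
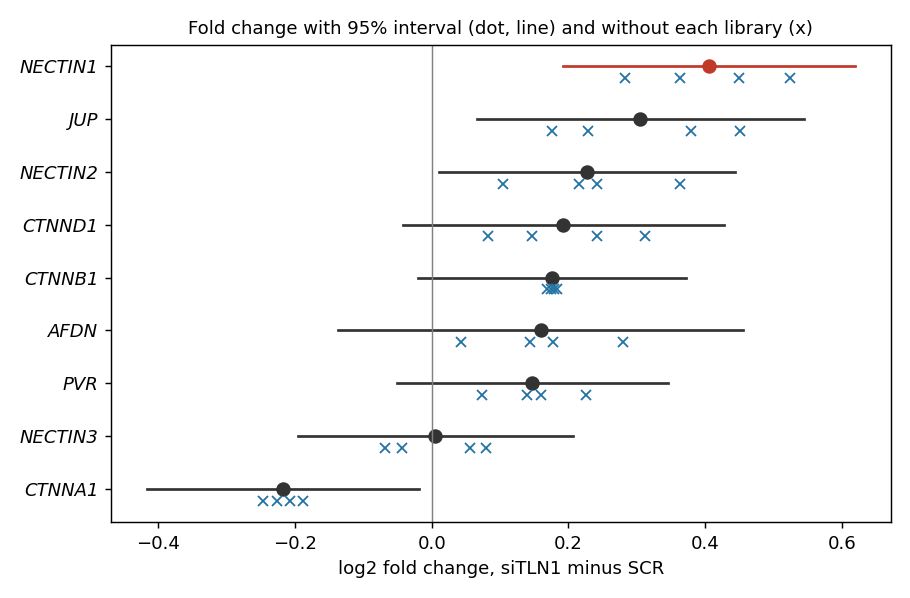
Log2 fold changes (horizontal axis, siTLN1 minus SCR) of the 9 measured members as dots with 95% intervals as lines, and the values without each library in turn as crosses. NECTIN1, in red, is the called member at 0.41, CTNNA1 is at −0.22 with every cross below 0, and the crosses of NECTIN3 lie on either side of 0.

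Levels of different genes were compared per kilobase of exon. In SCR the means were 60.7 CPM per kilobase for CTNNA1, 33.3 for CTNNB1, 27.4 for PVR, 17.0 for NECTIN2, 13.0 for NECTIN3, 9.81 for NECTIN1, 5.53 for JUP, 2.24 for CTNND1 and 0.537 for AFDN. With all exon bases as the length, no pair of neighbours in this order overlapped between the 2 SCR libraries. The order depends on the length used. Per kilobase of unshared exon PVR was at 42.3, above CTNNB1, and CTNND1 was at 5.31 with libraries that overlapped those of JUP. The place of CTNND1 in the order is not settled by any of these lengths. Pairs confined to its shared bases, which include all coding bases of the transcript examined, were not counted. Per kilobase of 1 transcript NECTIN3 (27.5) and NECTIN2 (25.7) changed places and their libraries overlapped. In siTLN1 NECTIN1 (13.0) and NECTIN3 (13.1) were level per kilobase of exon, and their libraries overlapped. Per kilobase of 1 transcript NECTIN1 (17.4) stayed below NECTIN3 (27.6) in siTLN1, and their libraries did not overlap.

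**Figure D3:**
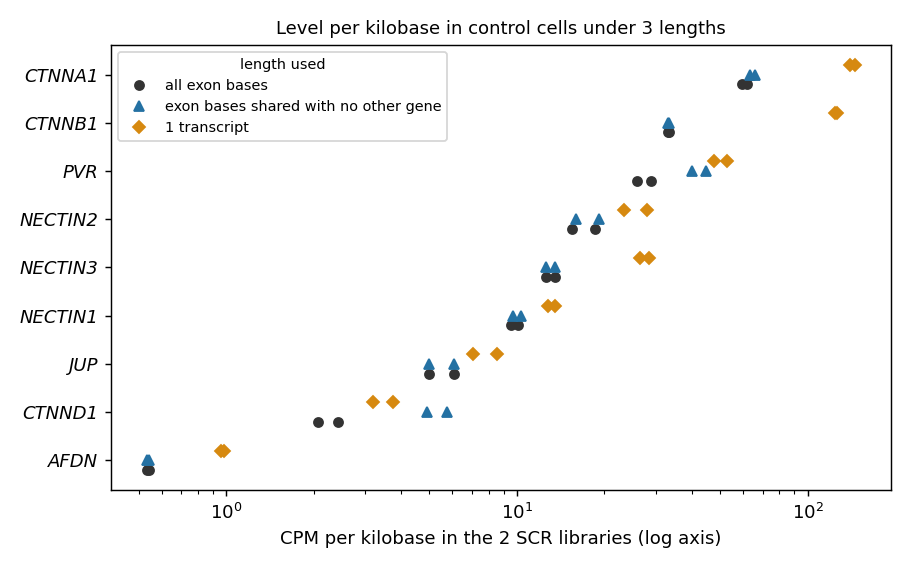
CPM per kilobase in the 2 SCR libraries (log horizontal axis) for the 9 measured members, with the length taken as all exon bases (circles), exon bases shared with no other gene (triangles) or 1 transcript (diamonds). CTNNA1 is highest and AFDN lowest under each length, and CTNND1 moves from 2.24 to 5.31 when shared bases are left out. CTNND1 counts lack pairs confined to its shared bases, so no length settles its place.

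Alpha-catenin binds cadherins through beta-catenin or plakoglobin, so the ratio of CTNNA1 to the sum of CTNNB1 and JUP was computed per kilobase, a ratio chosen after the values were seen. It was 1.61 and 1.52 in SCR and 1.18 and 1.17 in siTLN1. The means were 1.56 ± 0.0654 (SD, n = 2) and 1.18 ± 0.000336 (SD, n = 2). The groups did not overlap, which the choice of these genes after their values were seen had already fixed. An exact two-sided permutation test gave p = 0.33, the smallest p that 2 against 2 libraries allow. That outcome was fixed in the same way, so it adds no support. Per kilobase of 1 transcript the ratio was 1.10 and 1.05 against 0.809 and 0.816, with the alpha form below the others in siTLN1. Its absolute level therefore depends on the length. Its direction could not, because CTNNA1 was lower and CTNNB1 and JUP were higher in each siTLN1 library. The change of length is thus no check of the direction.

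Shares within a family use no scaling between libraries. JUP made up 14.2% ± 1.73 (SD, n = 2) of the sum with CTNNB1 in SCR and 15.4% ± 0.984 in siTLN1, overlapping groups (exact permutation p 0.667). Per kilobase of 1 transcript these shares were 5.87% and 6.39%. Of the summed nectins and PVR, PVR held 40.8% ± 1.13 in SCR and 39.8% ± 1.19 in siTLN1, the largest share in each library. NECTIN1 went from 15.5% and 13.7% in SCR to 17.9% and 16.1% in siTLN1, and NECTIN3 from 20.8% and 18.1% to 17.5% and 16.7%. Neither of these overlapped between groups, and the exact permutation p was 0.33 for each, the smallest possible. The CPM of NECTIN3 did overlap between groups (log2 fold change 0.0055), so its lower share does not show a fall in its own level. NECTIN2 held 25.2% ± 2.02 and 26.0% ± 0.711, which overlapped.

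**Figure D4:**
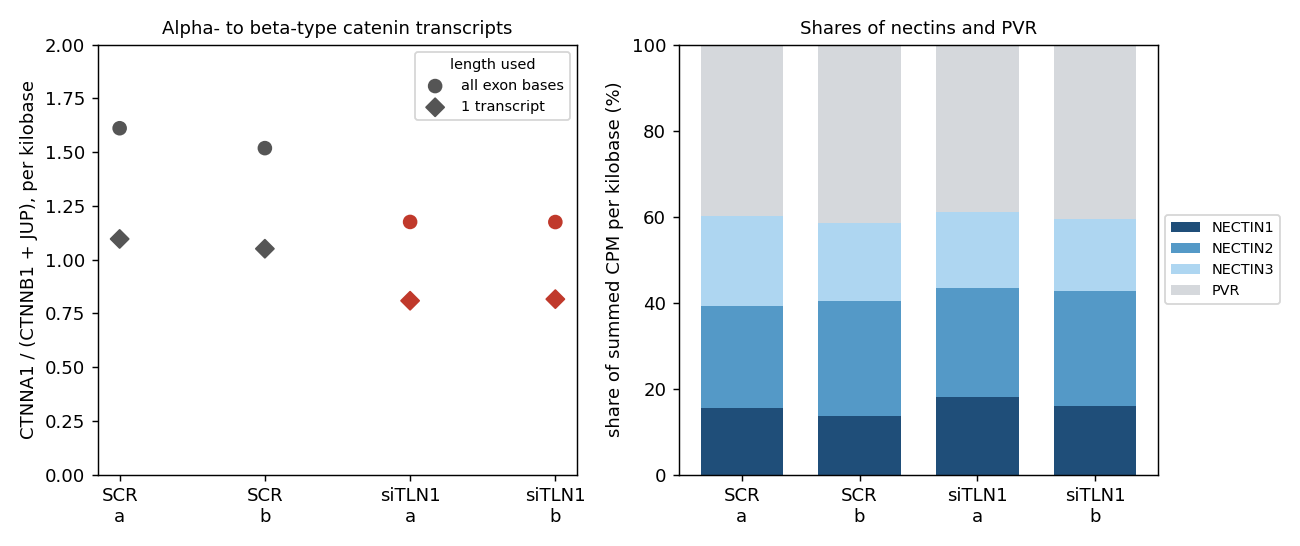
Left, the ratio of CTNNA1 to CTNNB1 plus JUP per kilobase in each library, by all exon bases (circles) and by 1 transcript (diamonds); right, the share in percent of NECTIN1, NECTIN2, NECTIN3 and PVR in their summed CPM per kilobase in each library. The ratio, chosen after the values were seen, is 1.52 or more in SCR and 1.18 or less in siTLN1 by exon bases. PVR is the largest share in all 4 libraries.

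Partners of these proteins were taken from 6 lists of 97 genes in all. Of these, 73 were tested and 7 were called, 4 higher and 3 lower. The 7 are 9.59% of the tested partners, beside 6.07% called over all tested genes. No conclusion on the lists as sets is drawn from these counts. In the classical cadherin list 2 of 11 tested genes rose and 1 fell, with a median log2 fold change of 0.21. CDH2 (N-cadherin, the main cadherin partner of the catenins here by counts) went from 569.0 and 534.6 CPM to 302.7 and 292.6 CPM and fell by 0.89 on the log2 scale (adjusted p 2.45e-05). CDH6 rose (0.61, adjusted p 0.00142), as did CDH24 (0.55, adjusted p 0.0331), which averaged 6.71 CPM in SCR. The CDH24 call was lost with DESeq2 (adjusted p 0.0568), with no filter on low counts (0.0542) and when SCR library a (0.138) or siTLN1 library a (0.315) was left out. CDH11, a mesenchymal cadherin at 287 CPM in SCR, had a value of −0.23 that was not called (adjusted p 0.156). The classical cadherins summed to 932 and 898 CPM in SCR and to 662 and 635 CPM in siTLN1. This sum is not per kilobase, and its fall was mostly that of CDH2, so it does not describe the list as a whole. CTNNB1 was higher in each siTLN1 library.

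Of 22 tested catenin partners and plaque genes 1 fell and 21 did not pass, with a median of −0.030. The gene was SHROOM3, a regulator of apical actomyosin, at 21.5 and 19.4 CPM in SCR and 15.8 and 14.2 CPM in siTLN1 (−0.45, adjusted p 0.0265), and without a filter on low counts its adjusted p was 0.0599. It was also not called without SCR library a (0.0996), siTLN1 library a (0.0920) or siTLN1 library b (0.187). Vinculin (VCL), which binds alpha-catenin and talin, had a value of 0.31 with an adjusted p of 0.0896. The p120-catenin relatives ARVCF (2.45 CPM in SCR) and PKP4 (82.4 CPM) had values of 0.33 and −0.31, and neither passed. In the desmosome list, which shares plakoglobin, 1 of 6 tested genes fell. That was PKP3, plakophilin-3, from 9.72 and 11.3 CPM to 6.43 and 7.21 CPM (−0.62, adjusted p 0.0128), a call lost without SCR library b (0.0663) or siTLN1 library a (0.150), and desmoplakin (DSP) was at 0.14 with an adjusted p of 0.501.

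Of 18 genes of the beta-catenin destruction complex and its TCF partners 1 rose, LEF1, a DNA-binding partner of beta-catenin, from 25.1 and 23.9 CPM to 31.4 and 34.1 CPM (0.42, adjusted p 0.0225). The LEF1 call was lost without SCR library b (0.0689), siTLN1 library a (0.0883) or siTLN1 library b (0.156). The scaffolds APC and AXIN1 had values of 0.24 and −0.0092, and AXIN2, a feedback target of Wnt signalling, one of 0.23, none of them called. Of 3 tested nectin-like partners 1 rose, CADM4, a nectin-like adhesion molecule, from 1.95 and 2.27 CPM to 4.31 and 4.58 CPM (1.07, adjusted p 0.00203). NECTIN4 had at most 5 counts in any library, and CADM1, at 544 CPM in SCR, had a value of 0.079. Of 13 tested Rap1 and Rac regulators none passed (medians were −0.018 here and 0.0033 over all genes), and 2 of them, RAPGEF2 and RAPGEF6, exchange factors for Rap1 that are tied to afadin, had values of 0.35 and 0.40 with adjusted p of 0.0720 and 0.100.

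**Figure D5:**
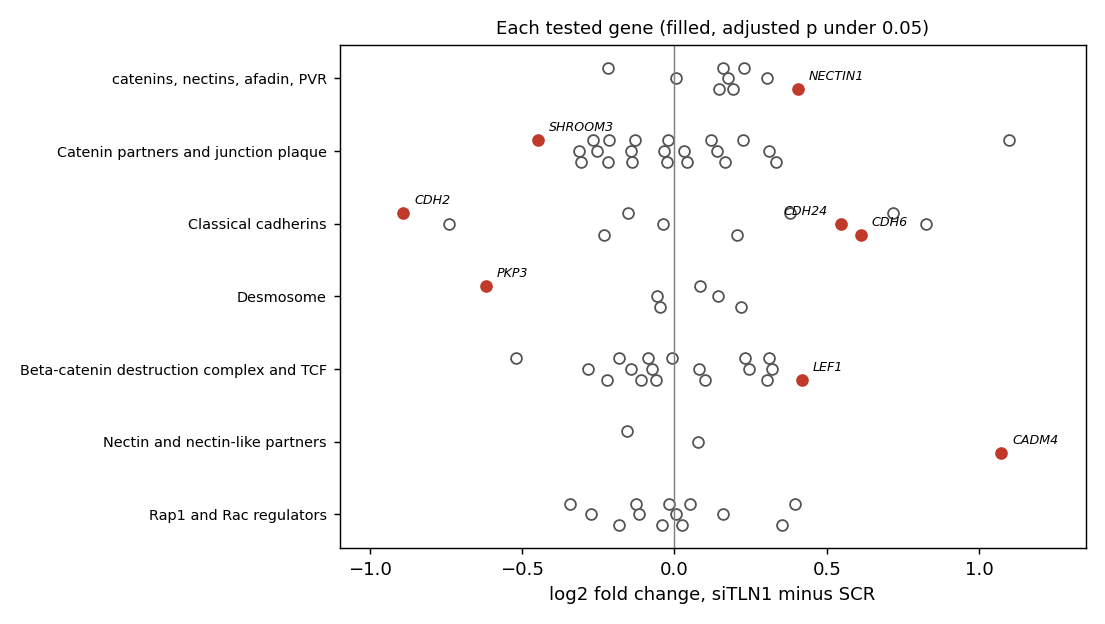
Log2 fold change (horizontal axis, siTLN1 minus SCR) of each tested gene among the members and in the 6 partner lists, 1 row of points per list. Filled and labelled points have an adjusted p under 0.05, and the 1 filled member is NECTIN1 beside 7 filled partners.

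The genes most like NECTIN1 across the 4 libraries were found by the Euclidean distance between centred log2 CPM values among the 10485 other genes with a mean CPM of at least 5. The nearest were ANGEL1 (distance 0.0164), ARL10 (0.0188) and PAXBP1 (0.0317). All 3 were highest in siTLN1 library a, as NECTIN1 was, a likeness that the way of choosing them brings about. In the edgeR test ARL10 and PAXBP1 were called and ANGEL1 was not (adjusted p 0.144). ARL10 was at 28.8 and 27.0 CPM in SCR and at 39.5 and 33.8 CPM in siTLN1. With 4 libraries such a match is a description only.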

How the data were processed

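RNA was sequenced from 2 SCR and 2 siTLN1 libraries of Hs578T cells, after a stranded preparation of mRNA (per the labels). The authors deposited raw gene counts from featureCounts 2.0.0, which counted pairs on GENCODE 33 with no strand, multi-mapping or multi-overlap option, per the file headers; pairs that fit several genes were therefore left out, and strands were not told apart. STAR 2.7.9a and GRCh38 stand in the submitters' processing notes. The deposited log2 CPM table, whose making no label describes, equalled edgeR's TMM-scaled log2 CPM in 100% of values (within 1e-06, sorted within groups). Besides the group, the names of the count columns hold numbers that recur in both groups (libraries a and b) but match no label, so no test on the counts used them as pairs.

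Symbols were matched by Ensembl ID. Groups were compared with edgeR 4.0.16 (TMM, filterByExpr with a minimum count of 10, robust glmQLFit, glmQLFTest), with Benjamini-Hochberg adjustment over 16137 genes and a threshold of 0.05. Intervals use the SE and degrees of freedom of that fit. With 2 libraries a group, p values set a difference against a spread between replicates that is partly borrowed from other genes. They refer to these samples only. Exact permutation tests of a single value cannot go below 0.33. Levels between genes were divided by exon length. Alternatives were RLE or no scaling, no filter, a mean of 10 counts, the legacy method, DESeq2 1.42.0, limma-voom and limma-trend (limma 3.58.1), a length trend removed (span 0.3), overlapping genes summed, each library left out, and a replicate block. The edgeR test and limma-trend without a replicate block were tried on simulated data with the same spread for all genes. The other alternatives were not.

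The members and lists were chosen with earlier results of these data known. Named genes are the members, TLN1, up to 4 called genes per list and the 3 nearest to the member with the smallest p, and genes sharing exon bases with a member; other list genes were named after their values were seen. Words were searched in GENCODE 29, in the protein-coding transcript with the longest coding sequence. Their coordinates are from its GRCh38 annotation.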

Additional observations from a re-analysis of the deposited data

How the results depend on the processing

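Among the fits with all 4 libraries and no replicate term, NECTIN1 was the called member each time (log2 fold changes from 0.40 to 0.42, adjusted p from 0.0074 to 0.0448), and NECTIN3 was the member that turned its sign, with the gene-length trend removed (−0.00018). With that trend removed 13 partner genes were called instead of 7, and 1406 of all tested genes instead of 980. The cause was not tested. Leaving out 1 library gives an arm with 1 sample, assumed to vary like the other group. These 4 fits called 347 to 1116 of all genes, 0 to 1 members and 3 to 8 partner genes, the lowest counts each without siTLN1 library a; the 1 member without SCR library b was JUP. Log2 fold changes then ran from 0.28 to 0.52 for NECTIN1, from 0.18 to 0.45 for JUP and from −0.069 to 0.080 for NECTIN3. Of 40 such values for the 10 other named genes called with all libraries, 14 lost their call (SHROOM3, CDH24, PKP3, LEF1, ARL10 and PAXBP1).

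The labels number the replicates in each group but state no shared preparation. Differences between replicates 1 and 2 correlated between the groups across genes at 0.19, and at 0.54 above 5 CPM, but 2 pairs are too few to establish pairing. With the replicate block, limma-trend on the deposited log2 CPM called 3645 genes, 30 partner genes and 5 members: NECTIN1 (adjusted p 2.88e-07), CTNNA1 (−0.22, 0.00527), CTNNB1 (0.18, 0.0275), JUP (0.31, 0.000795) and NECTIN2 (0.23, 0.00544). Over the other alternatives with all 4 libraries the adjusted p of these last 4 ranged from 0.0863 to 0.392. For CTNND1, PVR and AFDN no alternative gave a call. CTNNA2 had no counts, so depth sets only its upper limit.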

Other observations

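Noncoding and pseudogene neighbours that carry a member's name, picked by name after the data were seen, were low. NECTIN3-AS1 was at 5.25 and 4.42 CPM in SCR and at 5.08 and 5.17 CPM in siTLN1 (log2 fold change 0.087, adjusted p 0.830), overlapping groups as for NECTIN3 itself. NECTIN1-DT had 8 and 10 counts in SCR and 14 and 19 in siTLN1, with a log2 fold change of 0.54 and an SE of 0.47 that was not called (adjusted p 0.579). CTNNA2-AS1, AFDN-DT and NECTIN1-AS1 had 0 counts in every library, and the pseudogene CTNNA1P1 had at most 2. CTNNBL1, a splicing factor that resembles beta-catenin in name and repeat structure, was at 52.6 CPM in each SCR library and at 53.9 and 58.7 CPM in siTLN1 (0.099, adjusted p 0.634).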
